A study of Mus musculus with 17 samples.

Results

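The 10 genes described here, *Ucp1*, *Cidea*, *Dio2*, *Ppargc1a*, *Prdm16*, *Cox7a1*, *Cox8b*, *Elovl3*, *Otop1* and *Kcnk3*, are known from brown and beige adipocytes, the fat cells that burn fuel to make heat. They were chosen by name as genes of these cells, with earlier results of these data known. All 10 were found among the 55401 gene identifiers of the files through the symbol of each Ensembl identifier. Their RNA was measured in pWAT (perigonadal white adipose tissue), a visceral depot next to the ovary or the testis, of 5 WT and 5 U9-KO females and of 3 WT and 4 U9-KO males. Every mouse gave 1 RNA-seq library of the whole tissue. All mice were of strain C57BL/6J, ate standard chow and were littermates from heterozygous breeders, and collection was at an age of 16 weeks by the methods. The paper also reports measurements of this cohort at later ages. U9-KO mice were homozygous for a deletion of all 5 exons of the long non-coding RNA *U90926*, and the WT mice carried no engineered allele. The comparison asked whether loss of *U90926* went with a different level of the heat-producing program in this depot.

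Brown adipocytes are packed with mitochondria, and UCP1 in the inner membrane lets protons flow back without making ATP, so that fuel is turned into heat. Beige adipocytes are cells within white fat that take on this program, most readily after cold or stimulation of the beta-adrenergic receptor, which acts through cAMP. Perigonadal fat is known as a depot of mice that turns beige only weakly. In RNA from whole tissue, fewer cells of a type and less RNA per cell cannot be told apart.

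In these mice the program was near the floor for *Ucp1*, low for *Elovl3* and *Otop1*, and plainly detected for the other 7 genes. None of the 10 genes passed the threshold of an adjusted p under 0.05 between U9-KO and WT mice in either sex (limma with Benjamini-Hochberg adjustment over all genes, adjusted p = 1 for all 10 in females and from 0.658 to 0.986 for the 9 tested in males). The largest estimates were in females, where *Otop1* was 2.14 ± 0.59 (SE, n = 5 and 5) and *Cidea* 1.60 ± 0.58 higher in U9-KO mice on the log2(normalized count + 1) scale. These 2 genes had unadjusted p-values of 0.00372 and 0.0175, and neither passed the adjustment.

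The values are read counts per gene after the authors had scaled every library by its own size factor and rounded the result, and they are called normalized counts here. The steps between the low values gave back what 1 read was worth in each library, from 0.8125 to 1.321 normalized counts, and hence 19700000 to 27600000 reads in genes per library. A count of 0 therefore allows up to 3 reads, or 2.44 to 3.96 normalized counts, and this limit covers counting error only. *U90926* itself was listed at 1 in 2 WT mice, female 3 and male 2, and at 0 in the other 15 mice, so its level could not check the genotype labels. The size factors were set in each sex separately, and levels of females and males are therefore set side by side without a test. WT female 4 and U9-KO female 1 stood apart from the other females by RNA of the ovary, with 120564 and 132098 normalized counts summed over 10 ovary and oviduct markers against 3617 to 37236 in the other 8. U9-KO female 3 stood apart by a summed normalized count of 28620744, against 20243688 to 24033629 in the other 9 females. The estimates that these 3 females weigh on most are given with and without them.

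The chromosomal positions are those of GRCm38. *Ucp1* (ENSMUSG00000031710) lies on the plus strand of chromosome 8 from 83290352 to 83298452 and has 6 exons. *Dio2* (ENSMUSG00000007682) lies on the minus strand of chromosome 12 from 90724552 to 90738438, and 100 of its exonic bases, or 1.7%, are shared with the opposite-strand gene *Gm26512*. *Cox8b* (ENSMUSG00000025488) lies on the minus strand of chromosome 7 from 140898945 to 140900446 and is the shortest of the 10, with an exonic length of 360 bases. *Prdm16* shares 109 exonic bases with *B230104I21Rik*, *Kcnk3* shares 229 with *Gm9899* and *Elovl3* shares 10 with *Pitx3*, each on the opposite strand. The library kit kept the strand, but whether the counting used it was not given in the sources used here.

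The sequences before the RefSeq starts of these 3 genes are shown because the genes mark the range of what was measured, from the nearly silent *Ucp1* to *Cox8b*, the most abundant per kilobase, and *Dio2*, which had the widest range of counts in males. They are the 250 bases before the RefSeq start on GRCm38.p6, at chr8:83290098-83290347 on the plus strand for *Ucp1*, chr12:90739039-90739288 on the minus strand for *Dio2* and chr7:140900447-140900696 on the minus strand for *Cox8b*, each read 5′ to 3′ along its gene. The *Dio2* window ends 600 bases before the gene as placed above, since the RefSeq start lies farther upstream than the GENCODE one, while the *Ucp1* and *Cox8b* windows end 4 and 0 bases before theirs. Capitals mark any match, on either strand, to the cAMP response element or CRE (TGACGTCA), the core of that element (TGACG), the core bound by nuclear receptors (AGGTCA), the CCAAT box or the TATA box (spelled TATAAA).
Ucp1: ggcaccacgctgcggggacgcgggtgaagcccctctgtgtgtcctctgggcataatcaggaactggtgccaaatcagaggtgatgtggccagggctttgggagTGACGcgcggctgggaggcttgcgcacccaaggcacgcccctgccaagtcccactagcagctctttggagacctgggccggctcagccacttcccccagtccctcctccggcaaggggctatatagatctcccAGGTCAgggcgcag
Dio2: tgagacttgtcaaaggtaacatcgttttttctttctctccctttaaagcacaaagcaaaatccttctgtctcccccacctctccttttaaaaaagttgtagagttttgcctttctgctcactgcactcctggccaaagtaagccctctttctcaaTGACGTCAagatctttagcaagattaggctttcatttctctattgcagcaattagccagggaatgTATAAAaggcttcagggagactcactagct
Cox8b: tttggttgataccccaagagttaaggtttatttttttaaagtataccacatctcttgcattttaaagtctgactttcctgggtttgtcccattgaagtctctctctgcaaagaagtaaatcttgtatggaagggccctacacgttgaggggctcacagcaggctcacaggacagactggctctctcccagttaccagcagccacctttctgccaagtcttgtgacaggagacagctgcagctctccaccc
The *Dio2* window held a full CRE that begins 95 bases before the start, and a TATA box 30 bases before it. The core of the CRE lies within it, so that match is counted with both. The *Ucp1* window held the core of the CRE 147 bases and the core of nuclear receptor sites 14 bases before the start. The *Cox8b* window held none of the searched letters. The table had a window for 7 of the 10 genes, and *Cidea*, *Elovl3* and *Kcnk3* were not in it. Of the 7 windows, 1 held the full CRE, 3 the core of the CRE, 1 the core of nuclear receptor sites, 2 the CCAAT box and 1 the TATA box, against 1.55%, 17.8%, 14.0%, 33.8% and 12.4% of all 32851 windows of the table. The enhancers known to drive *Ucp1* lie farther from the start than these windows reach.

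**Figure D1:**
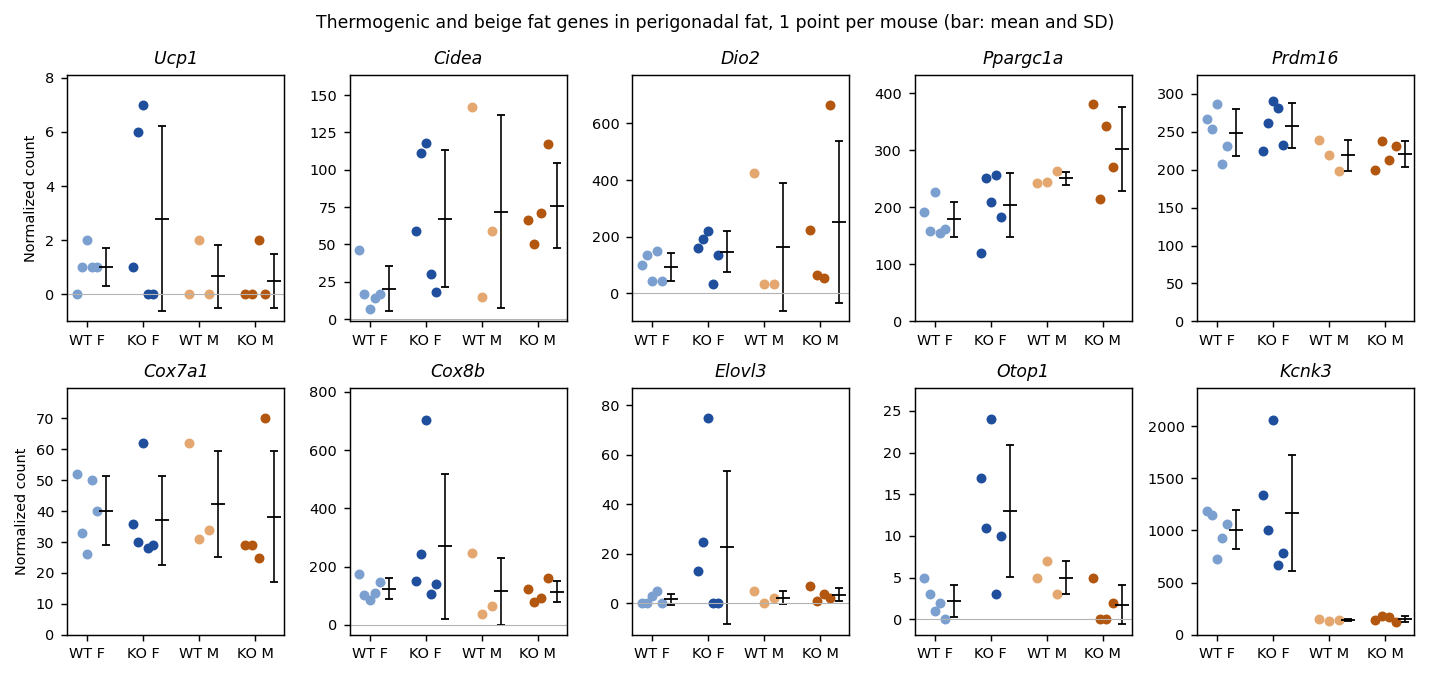
Normalized count of each of the 10 genes (vertical axis, from 0 where the bars allow, with its own range for each gene) in each mouse, by group: WT females and U9-KO females (KO F), WT males and U9-KO males (KO M). Points are mice, and the black bars show the group mean and SD. WT and U9-KO mice overlap within each sex for all 10 genes, *Ucp1* is at 7 or less in every mouse, and *Kcnk3* is above 600 in all females and below 200 in all males.

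Levels of different genes can be compared only per length. Per kilobase of exon, *Cox8b* was first in both sexes, with a mean of 547 ± 511 (SD, n = 10) normalized counts per kb in females and 318 ± 198 (n = 7) in males. This placed it above 92.4% of the 24773 genes with a known length that were tested in females. *Kcnk3* followed in females with 274 ± 101, then *Cox7a1* with 72.1 ± 22.8, *Cidea* with 39.2 ± 36.4, *Ppargc1a* with 29.0 ± 6.8, *Prdm16* with 27.2 ± 3.09 and *Dio2* with 20.9 ± 11.1. The step from *Kcnk3* to *Cox7a1* was seen in 10 of 10 females and that from *Cox7a1* to *Cidea* in 9 of 10, whereas *Cidea* was above *Ppargc1a* in only 4, *Ppargc1a* above *Prdm16* in 7 and *Prdm16* above *Dio2* in 6, so these neighbours did not separate beyond their spread. At the low end were *Elovl3* with 6.13 ± 11.9, *Otop1* with 2.21 ± 2.28 and *Ucp1* with 1.16 ± 1.54 normalized counts per kb. *Ucp1* stood above only 7.67% of the genes tested in females. In males the order began with *Cox8b*, *Cox7a1* (74.8 ± 33.9) and *Cidea* (66.6 ± 38.1), and *Kcnk3*, with 37.0 ± 5.25, came after *Ppargc1a* (42.5 ± 8.99) and beside *Dio2* (36.9 ± 42.2). *Cox8b* was above *Cox7a1* in 7 of 7 males, and *Prdm16* (23.6 ± 1.83) above *Elovl3* (1.52 ± 1.24) in 7 of 7. *Cox7a1* was above *Cidea* in 4 males, *Kcnk3* above *Dio2* in 4 and *Dio2* above *Prdm16* in 3, so these did not separate.

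The regulators *Prdm16* and *Ppargc1a* were among the steadiest of the 10. *Prdm16*, a zinc-finger protein that sets brown and beige identity, ranged from 207 to 286 normalized counts in WT females and from 224 to 291 in U9-KO females. The male ranges were 198 to 239 in WT and 200 to 238 in U9-KO mice. The groups lay almost on top of each other, with log2 differences of 0.05 ± 0.12 (SE) in females and 0.01 ± 0.12 in males and 95% confidence intervals of -0.22 to 0.33 and -0.25 to 0.28. *Ppargc1a*, a coactivator of mitochondrial gene expression that adrenergic signals raise, had 191, 159, 226, 155 and 162 normalized counts in WT females and 119, 252, 210, 257 and 183 in U9-KO females. The U9-KO females held both the lowest and the highest values. In males it had 243, 244 and 264 in WT and 380, 215, 342 and 271 in U9-KO mice, and 3 of 4 U9-KO males were above all WT males. The log2 difference was 0.16 ± 0.21 in females and 0.24 ± 0.18 in males (95% confidence intervals -0.30 to 0.61 and -0.16 to 0.63).

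*Dio2*, the deiodinase that makes active thyroid hormone inside the cell and is strongly induced by cAMP in brown fat, varied widely within every group. Normalized counts were 100, 135, 45, 150 and 43 in WT females and 160, 191, 219, 33 and 137 in U9-KO females. In males they were 426, 33 and 34 in WT and 223, 64, 56 and 666 in U9-KO mice. Single mice decided the male means, since WT male 1 and U9-KO male 4 were far above the others of their groups. The log2 difference was 0.59 ± 0.53 in females and 0.94 ± 1.01 in males, with 95% confidence intervals of -0.57 to 1.74 and -1.30 to 3.19. Without WT male 1 the male estimate was 2.15, and without U9-KO male 4 it was 0.24. The female estimate was 0.38 without U9-KO female 3, 0.71 ± 0.61 without the 2 ovary-rich females, and from 0.35 when WT female 5 was left out to 1.06 when U9-KO female 4 was.

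*Ucp1*, the uncoupling protein that defines thermogenic adipocytes, was at or close to the limit of detection. It had 0, 1, 2, 1 and 1 normalized counts in WT females and 1, 6, 7, 0 and 0 in U9-KO females, and 0, 2 and 0 in WT males and 0, 0, 2 and 0 in U9-KO males. The values in U9-KO females 2 and 3 corresponded to 6 and 5 reads. The value of 2 in WT male 2 could stand for 2 or 3 reads, and all other mice were below the 3-read limit. The female log2 difference was 0.44 ± 0.66 (95% confidence interval -1.0 to 1.89) and was 0.03 without U9-KO female 3. In males *Ucp1* had a total of 4 and did not reach the minimum total of 10, so it was not tested there. A difference between the genotypes in *Ucp1* was not detectable at this depth.

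The muscle-type subunits of cytochrome c oxidase, which brown fat shares with heart and skeletal muscle, did not differ between the genotypes beyond the spread between mice. *Cox8b* had 176, 103, 86, 110 and 148 normalized counts in WT females and 152, 242, 705, 107 and 141 in U9-KO females. U9-KO female 3 was far the highest, U9-KO female 2 also lay above every WT female, and the remaining U9-KO females lay within the WT range. In males *Cox8b* had 248, 37 and 63 in WT and 122, 78, 93 and 160 in U9-KO mice, with the WT mice both lowest and highest. The log2 difference was 0.79 ± 0.44 in females (95% confidence interval -0.17 to 1.74) and 0.38 ± 0.53 in males (-0.80 to 1.56), and without U9-KO female 3 the female estimate was 0.35. *Cox7a1* ranged from 26 to 52 in WT females, from 28 to 62 in U9-KO females, from 31 to 62 in WT males and from 25 to 70 in U9-KO males. It was the only one of the 10 with an estimate below 0 in females, at -0.14 ± 0.28, and in males it was -0.20 ± 0.39.

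Set against the forms found in most tissues, the muscle-type subunits were a small share. Per kilobase, *Cox7a1* made up 2.50% to 6.71% of the sum of *Cox7a1* and *Cox7a2* over all 17 mice. *Cox8b* made up 1.08% to 10.8% of the sum of *Cox8b* and *Cox8a*. The highest share of *Cox8b* was again that of U9-KO female 3, next to 5.73% in U9-KO female 2 and at most 3.94% in WT females. *Cox8a* itself ranged from 7903 to 16111 normalized counts per kb and did not differ between the genotypes beyond the spread (0.13 ± 0.18 in females and 0.13 ± 0.13 in males on the log2 scale, adjusted p = 1 and 0.808). The related subunit *Cox6a1* had 4487 to 7396 normalized counts over the 17 mice, and its relative *Cox6a2* had 0 to 4. The markers of skeletal muscle were low throughout, with sums over 10 genes of 192 to 827 in females and 497 to 1560 in males. U9-KO female 3, with the most *Cox8b*, had the lowest of these sums, and its heart muscle sum over 6 genes was 246 against 208 to 821 in the other females. The genes of the skeletal muscle list were split in this mouse. It had the lowest *Acta1* of the females, 22 against 39 to 543. Its *Myh2*, 33 against 0 to 11, and its *Myh1*, 24 against 3 to 23, were the highest. The part of muscle RNA in the level of *Cox8b* was not tested.

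**Figure D2:**
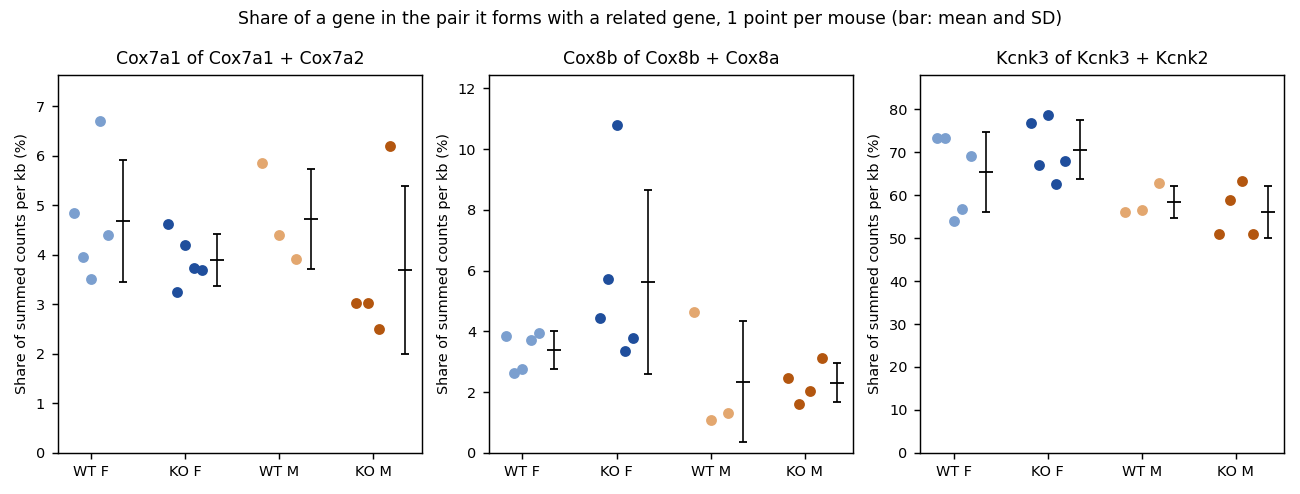
Share (%) of *Cox7a1*, *Cox8b* and *Kcnk3* in the pair each forms with its related gene, computed from normalized counts per kb (vertical axes, from 0). Points are mice in the 4 groups, and the black bars show mean and SD. *Cox7a1* and *Cox8b* stay at or below 10.8%, *Kcnk3* is between 51.0% and 78.7%, and groups of the same sex overlap in all 3 panels.

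Of the lipid-handling genes, *Cidea*, a lipid-droplet protein that is high in brown fat, was higher in U9-KO females on average. It had 46, 17, 7, 14 and 17 normalized counts in WT females and 59, 111, 118, 30 and 18 in U9-KO females. U9-KO females 1, 2 and 3 were above every WT female, while the other two lay within the WT range. The means were 20.2 ± 15.0 and 67.2 ± 45.7 (SD, n = 5 each), and a two-sided exact permutation test gave p = 0.0556 (0.556 after Benjamini-Hochberg adjustment over the 20 tests of 10 genes in 2 sexes). The log2 difference of 1.60 ± 0.58 had a 95% confidence interval of 0.34 to 2.87 and became 1.32 without U9-KO female 3 and 1.50 ± 0.70 without the 2 ovary-rich females. In males *Cidea* had 142, 15 and 59 in WT and 66, 50, 71 and 117 in U9-KO mice, all U9-KO values lying inside the WT range. The male estimate was 0.51 ± 0.60 (95% confidence interval -0.84 to 1.86), and it was -0.34 without WT male 2 and 1.24 without WT male 1. With both sexes in 1 fit it was 1.16 ± 0.46 (unadjusted p = 0.0217, adjusted p = 0.938). The difference of the genotype effect between males and females was -1.09 ± 0.93 (95% confidence interval -3.06 to 0.87), so an effect in females alone was not shown. Its relative *Cidec*, the lipid-droplet protein of white fat, was far more abundant, and *Cidea* was at most 0.598% of the 2 together per kilobase. *Cideb* was at 0 to 3 in every mouse.

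*Elovl3*, which makes very long-chain fatty acids and is sharply induced in cold-exposed brown fat, was listed at 0 in 6 of 17 mice. It had 0, 0, 3, 5 and 0 normalized counts in WT females and 13, 25, 75, 0 and 0 in U9-KO females. U9-KO females 1, 2 and 3 were again above every WT female, with 13, 23 and 57 reads. Male values were 5, 0 and 2 in WT and 7, 1, 4 and 2 in U9-KO mice. The female log2 difference was 2.03 ± 1.19 (95% confidence interval -0.58 to 4.65) and was 1.21 without U9-KO female 3 and 2.24 ± 1.39 without the 2 ovary-rich females, and the male one was 0.59 ± 0.74 (-1.05 to 2.23). A related elongase, *Elovl6*, which works in the making of fatty acids from sugar, was also uneven among the females. It had 15997, 10963, 581, 2099 and 3856 normalized counts in WT females and 20976, 25681, 71337, 942 and 8260 in U9-KO females. U9-KO females 1, 2 and 3 were the highest for both genes. The log2 difference of *Elovl6* was 1.70 ± 1.14 in females and 0.95 ± 0.38 in males (adjusted p = 1 and 0.629), and the female one was 1.07 ± 1.12 without U9-KO female 3. *Elovl1* varied little, from 785 to 1075 over the 17 mice.

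The membrane channels *Otop1* and *Kcnk3* lay far apart in level. *Otop1*, a proton channel that is known to be high in brown fat, had 5, 3, 1, 2 and 0 normalized counts in WT females and 17, 11, 24, 3 and 10 in U9-KO females. In U9-KO females 4 of 5 mice were above every WT female. In males *Otop1* had 5, 7 and 3 in WT and 5, 0, 0 and 2 in U9-KO mice, where 3 of 4 U9-KO males were below every WT male. The female means were 2.2 ± 1.92 and 13.0 ± 7.91, and the two-sided exact permutation test gave p = 0.0238, which became 0.476 after adjustment over the 20 tests. The smallest p this test can give with 5 against 5 mice is 0.00794. With 3 against 4 mice it rests on only 35 splits of the mice. The limma estimate was 2.14 ± 0.59 in females (95% confidence interval 0.85 to 3.43) and -1.49 ± 0.73 in males (-3.10 to 0.13, unadjusted p = 0.0679, adjusted p = 0.658). The female estimate was 1.87 without U9-KO female 3 and 2.03 ± 0.71 without the 2 ovary-rich females. The difference between the male and the female effect was -3.62 ± 0.95 (95% confidence interval -5.62 to -1.62), with an unadjusted p of 0.00133 and an adjusted p of 1. All male values were 9 reads or fewer. Its relatives *Otop2* and *Otop3* were at 0 in 16 of 17 mice each.

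*Kcnk3*, a leak potassium channel of the cell membrane that restrains adrenergic signalling in brown adipocytes, was plentiful in females. It had 1186, 1146, 724, 924 and 1057 normalized counts in WT females and 1337, 1003, 2054, 665 and 784 in U9-KO females. In males it had 151, 131 and 144 in WT and 138, 175, 172 and 118 in U9-KO mice. Every female was above every male, and the mean ratio of females to males was 7.4, or 6.81 after the 2 sexes were brought to the same median level. No other of the 10 genes separated the sexes in this way, and this is given without a test because the 2 sexes were scaled separately. The genotype difference was 0.12 ± 0.27 in females (95% confidence interval -0.48 to 0.71), turning to -0.12 without U9-KO female 3, and 0.07 ± 0.16 in males (-0.30 to 0.44). *Kcnk2*, a channel of the same family, also kept the sexes apart, with 456 to 872 normalized counts in females and 106 to 164 in males. *Kcnk3* made up 53.9% to 78.7% of the 2 together per kilobase in females and 51.0% to 63.3% in males. The sum over 6 smooth muscle and pericyte markers also separated the sexes, with 22668 to 209972 in females and 11906 to 17468 in males. It was carried by smooth muscle genes such as *Myh11*, while the pericyte marker *Rgs5* went the other way, with 3134 to 6671 in females and 6422 to 12266 in males. The part of smooth muscle RNA in the level of *Kcnk3* was not tested. Within the females U9-KO female 3 had the most *Kcnk3* and the lowest of those sums.

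**Figure D3:**
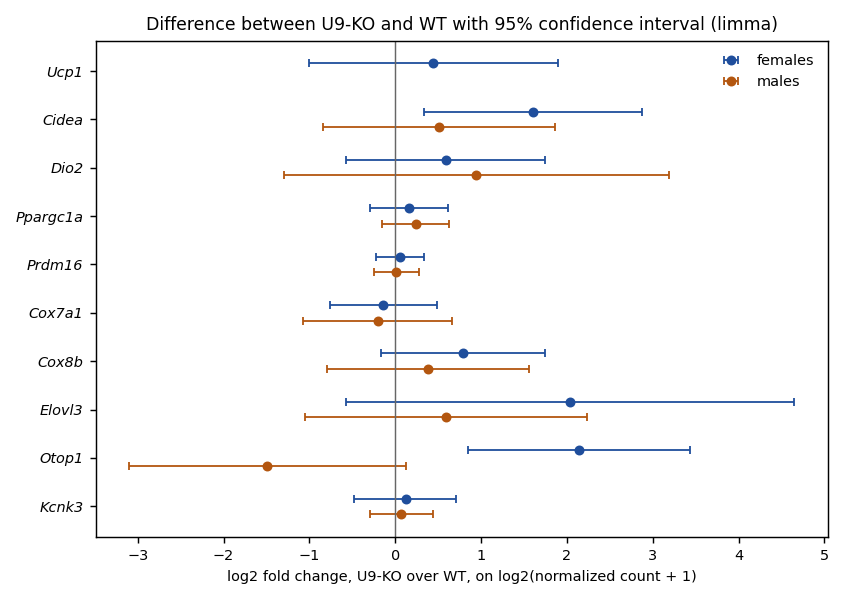
Difference between U9-KO and WT mice for each gene (horizontal axis, log2 fold change on normalized count + 1) in females (blue) and males (orange), with 95% confidence intervals from limma; *Ucp1* was not tested in males. The intervals of *Cidea* and *Otop1* in females lie above 0 before adjustment for all genes, and the other intervals include 0.

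Over the list, 0 of 10 genes passed the adjusted threshold of limma in females and 0 of 9 in males, against 0% of the 24825 and 0% of the 21930 genes tested. The paper, which used DESeq2, reports some genes under the same adjusted threshold in each sex and none with the sexes together. Its text does not say whether any of the 10 was among them. In the limma fits, 2 of 10 had an unadjusted p under 0.05 in females, where 2.23% of all genes were under it, and 0 of 9 in males, where 7.60% were. These counts depended on single mice. Without U9-KO female 4 there were 5 of 10 (*Cidea*, *Dio2*, *Cox8b*, *Elovl3* and *Otop1*, all genes 5.00%), and without U9-KO female 5 there were 3 of 10 (all genes 2.10%). Without WT male 1 there were 3 of 9 in males (*Cidea*, *Dio2* and *Cox8b*, all genes 15.6%), and 1 of 9 without U9-KO male 1 or U9-KO male 2 (all genes 5.51% and 6.25%). With both sexes in 1 fit the count was 1 of 10 (all genes 4.02%), and for the difference between the sexes 1 of 10 (all genes 3.46%). Estimates were above 0 for 9 of 10 genes in females and 7 of 9 in males, where 49.9% and 50.1% of all genes were. The median log2 difference of the list was 0.51 in females and 0.24 in males, and that of all genes 0. The female median was 0.24 without U9-KO female 3, 0.29 without U9-KO female 2, 0.90 without U9-KO female 4 and 0.63 without the 2 ovary-rich females, with 8 of 10 genes above 0 in the first case and 9 of 10 in the others. The male median was -0.11 without WT male 2, with 4 of 9 genes above 0, between 0.12 and 0.20 without WT male 3, U9-KO male 1, U9-KO male 3 or U9-KO male 4, and 0.39 without U9-KO male 2. The members share mice, and U9-KO female 3 was the highest female for 9 of 10, so their signs do not count as separate observations. For none of the 10 genes were the 2 groups of a sex apart, which was so for 0.238% of all genes in females and 7.60% in males. No single U9-KO effect differed between males and females after adjustment.

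Single mice stood out across several of the genes. U9-KO female 3 gave the highest female value of every gene but *Ppargc1a*. When each library was instead scaled to its own sum, it was the highest for 4 of 10 genes and U9-KO female 2 for 3, so the count depends on the scaling of this library. The same mouse had the lowest sum of smooth muscle markers (22668, others 43404 to 209972) and of macrophage markers (9662, others 10547 to 20248), and the highest sums of endothelial (25855, others 12088 to 18581), nerve and Schwann cell (1062, others 251 to 622) and white fat genes (368349, others 157822 to 306566). Without it, the female counts at an unadjusted p under 0.05 were 2 of 10 (all genes 1.93%), and without the 2 ovary-rich females 1 of 10 (all genes 2.02%), with no member past the adjusted threshold in either case. Among the marker lists in females, estimates were above 0 for 6 of 6 nerve and Schwann cell, 5 of 5 endothelial and 4 of 6 heart muscle genes. This was so for 2 of 5 adipocyte progenitor, 3 of 9 skeletal muscle and 1 of 3 epididymis genes. It was so for 2 of 10 ovary and oviduct, 1 of 6 smooth muscle, 0 of 5 macrophage and 0 of 5 mesothelium genes. Over all genes the share was 49.9%. No marker passed the adjusted threshold, and the genes of a list share mice. The part of these cell types in the values of the thermogenic genes was not tested. Among males, WT male 1 and U9-KO male 4 were the 2 highest for *Dio2*, *Cidea*, *Cox7a1* and *Cox8b*, and WT male 2 was the lowest for 4 of the 9 genes tested. WT male 2 also had the highest macrophage sum, 35488 against 15404 to 25207 in the other males.

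**Figure D4:**
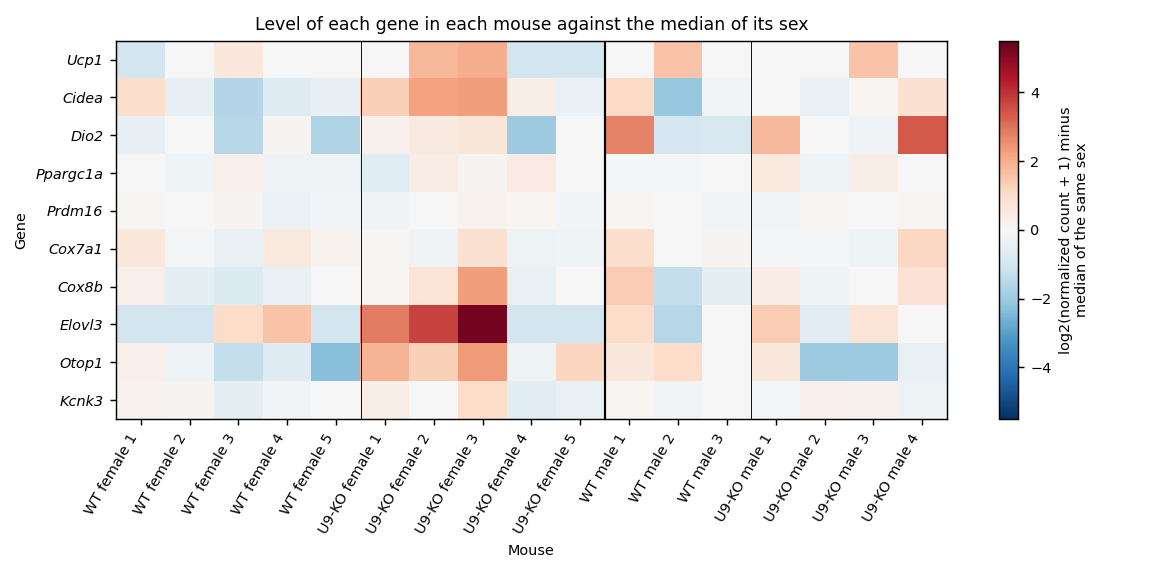
Level of each gene (rows) in each mouse (columns, females left of the thick line and males right of it), as log2(normalized count + 1) minus the median of the same sex; red is higher and blue lower, and thin lines part WT from U9-KO mice. U9-KO females 1 to 3 are red for *Elovl3*, *Otop1* and *Cidea*, WT male 1 and U9-KO male 4 for *Dio2*, and *Prdm16* is nearly white throughout.

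Some genes of the program went up and down together from mouse to mouse. Correlations were computed on log2(normalized count + 1) for members whose mean in that sex reached 10, which gave 28 pairs of 8 genes in females and 21 pairs of 7 genes in males. *Cidea* and *Cox8b* had the highest correlation in both sexes. In the 10 females Pearson's r was 0.82 (permutation p = 0.00047, adjusted over the 28 pairs 0.0132) and Spearman's rho 0.86 (permutation p = 0.0025, adjusted 0.0636). In the 7 males r was 0.93 (exact permutation p = 0.00159, adjusted over the 21 pairs 0.0333) and rho 0.93 (exact p = 0.00675, adjusted 0.0708). Without the 2 mice farthest from the median of *Cidea*, r was 0.74 in females and 0.83 in males, and with each genotype centred on its own mean it was 0.76 and 0.93. The mice of a pair of genes share library and scaling. *Dio2* and *Cox8b* had an r of 0.89 in males (exact p = 0.00476, adjusted 0.05) and 0.57 in females (permutation p = 0.0737, adjusted 0.172). *Ppargc1a* went with *Prdm16* in females (r = 0.76, rho = 0.81, permutation p = 0.0103 and 0.00699, adjusted 0.0721 and 0.0636). In males the same pair had the opposite sign, with r = -0.67 and rho = -0.68 (exact permutation p = 0.104 and 0.11, adjusted 0.388 and 0.575), the lowest r of the 21 male pairs. The correlation of *Cox8b* with *Kcnk3* in females, 0.80, was 0.33 without WT female 3 and U9-KO female 3 and thus rested on those mice. In all, 23 of 28 pairs were positive in females and 15 of 21 in males, with a median r of 0.41 and 0.18. In each sex 0 pairs had adjusted p-values under 0.05 for both r and rho (permutation tests). The pairs share genes and mice, and the share of positive pairs among all genes was not computed.

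**Figure D5:**
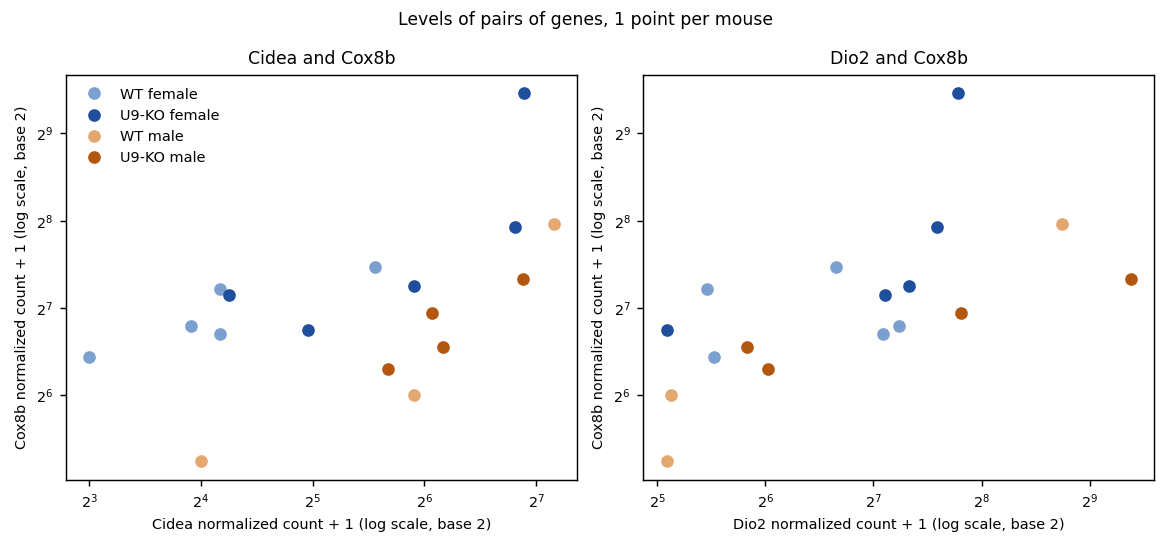
Normalized count + 1 of *Cox8b* against that of *Cidea* (left) and of *Dio2* (right), with both axes on a log scale of base 2; points are mice, coloured by sex and genotype. Mice with more *Cidea* tend to have more *Cox8b* within females and within males, and the male points lie lower or further right than the female ones.

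The genes whose levels were most like those of 3 of the members were found by Pearson's r over the 17 mice, with log2(normalized count + 1) centred on the mean of each sex and genotype and over all genes with a mean of at least 10. For *Cidea* they were *8430422M14Rik* (r = 0.94), *Lipt1* (0.91) and *Gm44706* (0.91), out of 17520 genes. *Lipt1* attaches lipoate to mitochondrial enzymes. For *Ppargc1a* they included *Tmem220* (0.84) and *Arhgef12* (0.83). For *Ucp1* they included *Gkap1* (0.86) and *Kcnh7* (0.81), out of 17521, and at counts this low the likeness for *Ucp1* is no more than a description. The highest of so many correlations over 17 mice are high by selection, and no p is given.

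Beyond the 10 genes, other genes of brown and beige fat were measured as a list of 33. Of these 32 passed the filter in females and 28 in males, and 0 rose or fell in either sex. Their estimates were split, with 16 above and 16 below 0 in females and 17 above and 11 below in males, and the medians were 0.02 and 0.04. *Adrb3*, the beta-adrenergic receptor of fat cells and the entry point of the signal, was the most abundant of them per kilobase and had 9206 to 26369 normalized counts over the 17 mice. Its genotype difference was -0.02 ± 0.23 in females and 0.31 ± 0.18 in males (adjusted p = 1 and 0.692). *Slc36a2*, an amino acid transporter of the adipocyte surface, came next, with 2435 to 8756 in females and 1676 to 3275 in males and differences of 0.31 ± 0.27 and 0.38 ± 0.16 (adjusted p = 1 and 0.631). *Ffar4*, a fatty acid receptor, had 231 to 970. A few markers were chosen after their values were seen. *Zic1*, which marks brown fat of the classical depots, was at 0 in all 17 mice, and *Lhx8* was at 3 to 19 in females and at 0 or 1 in males. *Fgf21*, a hormone that brown fat makes in the cold, did not exceed 6. The beige markers *Tmem26*, *Tnfrsf9* and *Cited1* were highest in the ovary-rich U9-KO female 1, with 484, 524 and 165 normalized counts against at most 136, 91 and 30 in any other mouse, and the part of ovary RNA in these values was not tested. The other beige markers did not stand out there, with 83 for *Tbx1*, 159 for *Epsti1*, 64 for *Eva1a* and 20 for *Slc27a2*, each within the range of the other females.

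Adrenergic and cAMP signalling and the heat-making cycles that do not need *Ucp1* showed no gene past the threshold. Of 13 signalling genes, 0 passed the test in either sex, with medians of -0.03 in females and 0.06 in males. The most abundant were the subunits of the cAMP-dependent kinase, *Prkar2b* (-0.14 ± 0.15 in females and 0.01 ± 0.12 in males) and *Prkaca* (0.22 ± 0.20 and 0.17 ± 0.14), and the phosphodiesterase *Pde3b*, which breaks cAMP down and had 4113 to 12311 normalized counts. Of 12 genes of creatine and calcium cycling 11 were tested in each sex and 0 passed. In females 9 of these 11 had estimates below 0, with a median of -0.21, and in males 6 of 11, with a median of -0.02. *Ckb*, the creatine kinase of this cycle, was -0.33 ± 0.38 in females and -0.08 ± 0.13 in males. In females it ranged from 1899 in U9-KO female 3 to 9654 in U9-KO female 4, the mice with the lowest and the highest sums of smooth muscle markers, and the part of smooth muscle RNA in it was not tested. *Atp2a2*, the calcium pump, was steady at 5437 to 6988 over all mice, and *Gamt*, which makes creatine, had 245 to 830.

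The other relatives of the 10 genes did not pass the test in either sex (0 of 17 tested in females and 0 of 15 in males, of 19 listed). *Ucp2*, an uncoupling protein of immune and other cells, was 250 to 551 normalized counts per kb, and *Ucp1* was at most 1.68% of the 2 together. *Ucp3*, known from muscle and brown fat, had 295 to 2050 normalized counts in females and 363 to 785 in males, with differences of 0.44 ± 0.51 and 0.48 ± 0.15 (unadjusted p = 0.405 and 0.0094, adjusted p = 1 and 0.612). *Ppargc1b* was 14.8 to 99.5 per kb, so that *Ppargc1a* made up 29.2% to 61.4% of the 2. The white fat genes that mark the tissue were abundant, with *Adipoq* at 27618 to 72328, *Fabp4* at 65303 to 244958 and *Retn* at 12942 to 53107 normalized counts. Of the 14 genes of this list 0 passed the test in either sex, and the median was 0.02 in females and 0.12 in males.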

How the data were processed

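RNA was isolated from whole pWAT of 17 mice and sequenced as strand-specific poly(A) libraries. The authors trimmed the reads, aligned them with STAR (2.7.3a), used summarizeOverlaps to count reads in genes and DESeq2 (1.28.1) to normalize, with GRCm38 as the build, as the submitters' processing notes and the methods state. Each deposited value is a score, namely a gene's read count that the authors scaled by the size factor of its library and then rounded. The table of all libraries repeats these values and was not used. In the file headers WT male 3 is numbered 4 and U9-KO male 4 is numbered 5. The numbers of the sample labels are used here.

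Symbols and exon lengths came from GENCODE (55141 of 55401 identifiers named) and upstream sequences from RefSeq (GRCm38.p6). Because raw counts were not at hand, limma 3.58.1 (lmFit, eBayes with trend) in R 4.3.3 was applied to log2(value + 1) for every gene whose total in the fitted mice reached 10, with Benjamini-Hochberg adjusted p under 0.05 as the threshold. The fits covered females, males, both with sex as covariate, and the interaction. Only the female and the male fit were tried on simulated data. Changes were planted there in genes with a mean of at least 10, which *Ucp1* and *Otop1* did not reach. Exact and permutation tests were two-sided (scipy 1.17.1, Python 3.11.15, with 100000 resamples in females). The p-values measure the spread between mice with 1 library each. Depth was 19700000 to 27600000 reads in genes per library, recovered from the steps between low values. Each of the 29 pairs of mice of 1 group differed in at least 24469 genes.

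The members and lists were chosen with earlier results of these data known. Named were the 10 genes, their listed relatives, the 3 most abundant per kilobase of each list of fat and signalling genes, any list gene past the threshold, and the 3 genes most like *Ucp1*, *Cidea* and *Ppargc1a*, of which some are not reported here. Marker lists of other cell types were summed per mouse. The alternatives were another pseudocount (0.5 or 5), no filter or a mean of at least 10, no trend, TMM scaling, a block for the replicate number, a joint fit of all 17 mice and leaving out each mouse. Added after the data were seen were the fits without the 2 ovary-rich females and the scaling of each library to its sum.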

Additional observations from a re-analysis of the deposited data

Results flagged for a closer look

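In groups of 4 or 5 mice, the level of a gene was looked at more closely where 1 mouse lay beyond Dixon's 95% limit for its distance from the rest of its group. This held for 5 of 30 groups. About 1.5 would be flagged among independent, normally distributed values. These counts are partly near 0 and the genes share mice, so the 1.5 is not a chance rate for them. *Cox8b* had 705 normalized counts in U9-KO female 3, while the rest of its group had 107 to 242. *Cox7a1* had 62 in the same mouse, while the rest had 28 to 36. *Cox7a1* also reached 70 in U9-KO male 4, where the rest of its group had 25 to 29. *Cidea* had 46 in WT female 1 and 7 to 17 in the remaining WT females. *Ucp1* had 2 in U9-KO male 3 and 0 in the other U9-KO males, a difference of 2 reads that is below the limit of detection.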

How the results depend on the processing

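No member passed the adjusted threshold under any setting, in any of the 4 fits. Of the 19 tested differences of single members, all 19 kept their direction with a pseudocount of 0.5 or 5 and with TMM scaling. The filter, the trend and the joint fit of all 17 mice change only the error and the p-value of a difference. Its direction could therefore not turn under these settings. With a mean of at least 10 as the filter, 15 differences remained. Over all genes the count of calls was 0 in every fit and became 1 in females and 1 in males without the trend. With both sexes it became 1 with a pseudocount of 0.5, 1 without the filter and 1 without the trend, and for the difference between the sexes 1 without the filter. Leaving out 1 mouse at a time, the count over all genes in males was 0 to 71, with 71 without WT male 1, and the cause was not tested. No member was among them.

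Same-numbered WT and U9-KO mice did not deviate together (correlations between -0.43 and 0.12 for the females, and between -0.12 and 0.01 for the males), so the numbers were not taken as pairs. With the replicate number as a block, the female estimates could not change, because each number held 1 WT and 1 U9-KO female. In males the number 4 held U9-KO male 4 alone, so the estimates were the same as without this mouse. There *Prdm16* went from 0.01 to -0.01 and the other male differences kept their direction. Counts of members under an unadjusted p of 0.05 were 2 of 10 in females (all genes 1.84%) and 0 of 9 in males (all genes 6.35%) with this block. WT male 3 pairs with U9-KO male 3 by its label only, since its file header carries the number 4.

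Leaving out 1 mouse turned the direction of small differences. In females these were *Prdm16* (-0.01 to 0.11, below 0 without WT female 4) and *Kcnk3* (-0.12 to 0.29, below 0 without U9-KO female 3). In males *Cidea* ranged from -0.34 to 1.24, *Cox8b* from -0.20 to 1.16 and *Elovl3* from -0.11 to 1.18, each lowest without WT male 2 and highest without WT male 1. *Cox7a1* in males ranged from -0.53 without U9-KO male 4 to 0.10 without WT male 1, *Prdm16* from -0.06 to 0.08 and *Kcnk3* from -0.01 to 0.18. *Otop1* stayed above 0 in females (1.78 to 2.53) and below 0 in males (-2.0 to -1.14). Without the 2 ovary-rich females all 10 female differences kept their direction. At this depth *Ucp1* and the males' *Otop1* and *Elovl3* rest on a few reads, and the number of mice limits all tests.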
